A study of Mus musculus with 12 samples.

Results

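The 10 genes described here belong to hepatic glucose production and insulin signalling, and were measured in hepatocytes and livers of mice lacking Jnk1 and Jnk2 and in their controls. They were Pck1, G6pc, Fbp1, Pcx, Ppargc1a, Foxo1, Insr, Irs1, Irs2 and Igfbp1. They were chosen by gene symbol, and all 10 of them were measured, among 18820 genes with a probe set of their own. Each gene was represented by its brightest probe set, by mean over the 12 arrays. Values are log2 array signals, so a difference of 1 is a 2-fold change. All readings of the 10 genes lay above the median probe set of their array.

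There were 4 groups of 3 samples from male C57BL/6 mice: JNKΔhepa hepatocytes, WT hepatocytes, JNKΔhepa liver and WT liver. Hepatocytes were isolated as primary cells. JNKΔhepa mice carried floxed Jnk1 (Mapk8) removed by a Cre under albumin and alpha-fetoprotein control elements, together with a constitutive Jnk2 (Mapk9) knockout. Jnk2 was therefore missing from every cell of these animals, and Jnk1 only where that Cre was active. The WT mice were littermates with floxed Jnk1 and intact Jnk2. The 6 mice, aged 7 to 8 weeks and with chow and water always available, were told apart by a labelled animal number, and each gave a hepatocyte sample and a liver sample. No treatment is labelled, and the sources used here do not give the hour of sampling.

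The liver makes glucose from lactate, glycerol and amino acids during fasting. Pyruvate carboxylase (Pcx), cytosolic phosphoenolpyruvate carboxykinase (Pck1), fructose bisphosphatase (Fbp1) and glucose-6-phosphatase (G6pc) catalyse the steps that bypass the irreversible reactions of glycolysis. Glucagon, acting through cAMP, and the factor FOXO1 with the coactivator PGC-1α (Ppargc1a) raise the transcription of these enzymes. Insulin binds its receptor (Insr) and signals through the adaptors IRS1 and IRS2 to the kinase AKT, which keeps FOXO1 out of the nucleus. JNK is known to phosphorylate IRS1 on serine and to dampen this signal. Igfbp1, which encodes a secreted binding protein for insulin-like growth factors, is a classical gene repressed by insulin.

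Both targeted genes were lower in JNKΔhepa. Mapk9 read 2.29 to 2.62 in JNKΔhepa hepatocytes against 7.74 to 8.10 in WT hepatocytes, and 2.33 to 3.02 in JNKΔhepa livers against 8.59 to 8.69 in WT livers. Mapk8 differed less, with log2 changes, JNKΔhepa minus WT, of −0.61 in hepatocytes (limma adjusted p = 0.00183) and −0.40 in liver (adjusted p = 0.027). It still read above the array median in JNKΔhepa, at 4.95 to 5.01 in hepatocytes and 5.93 to 6.07 in liver. The liver call for Mapk8 was lost in 7 of 15 other settings, so it checks the genotype only weakly. The deleted exons of Mapk8 are not named in the labels, and its probe set may lie beyond them. All 9 measured hepatocyte markers read above the array median on every array. All 8 sinusoidal endothelial markers did so too, also in the hepatocyte samples, so this count does not tell cell types apart. The median probe set of an array read 3.22 to 3.28 in the hepatocyte samples, against 4.09 to 4.12 in the liver samples, so the tissues appear to have been normalised separately. Genotypes were therefore tested within a tissue, and levels across tissues were only described.

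**Figure D1:**
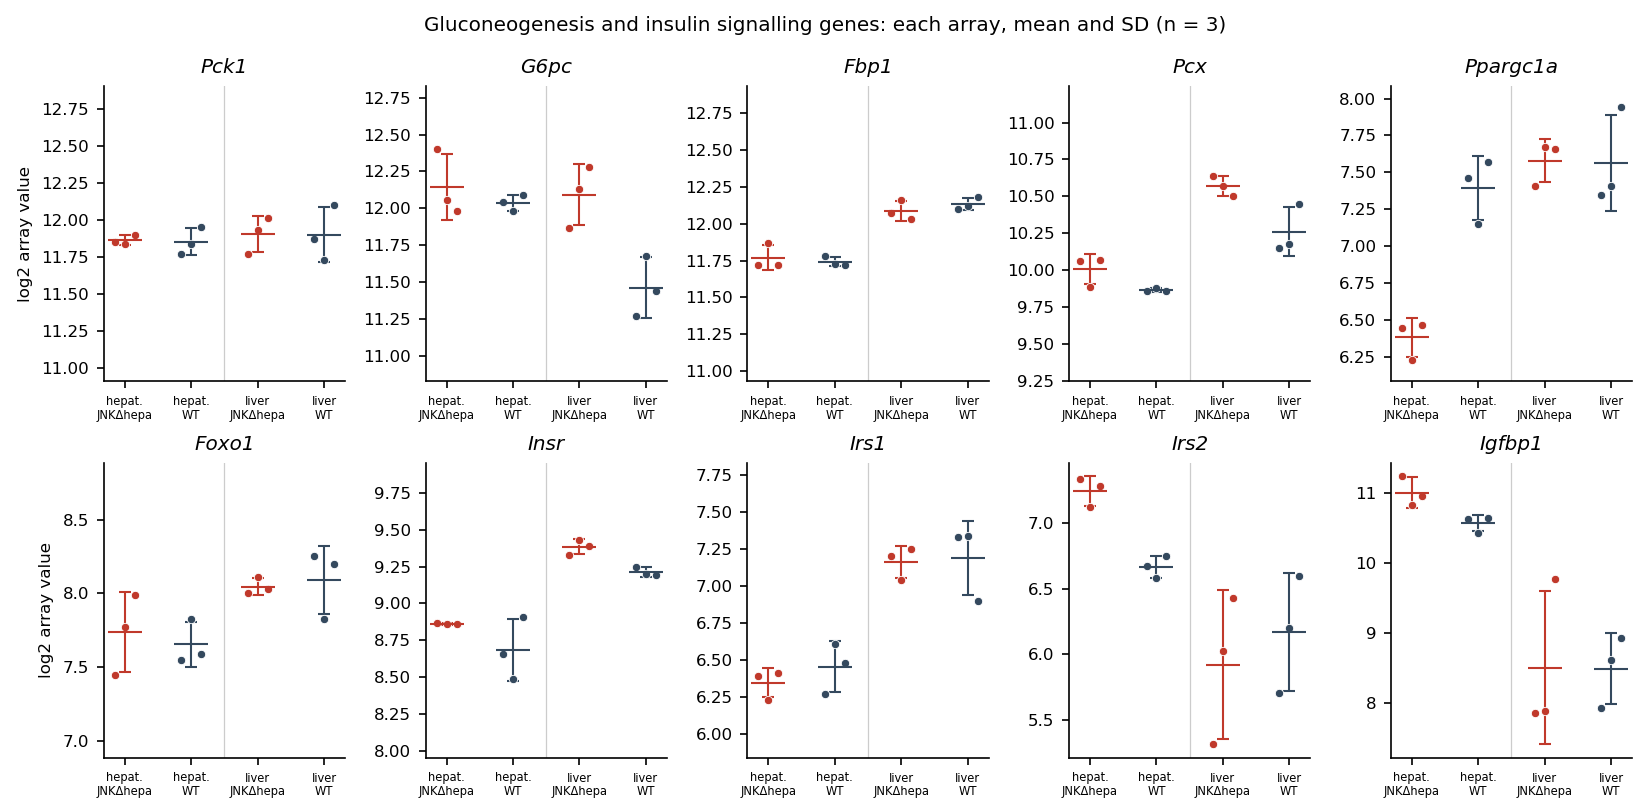
Log2 array values of the 10 genes (vertical axes, each spanning at least 2 log2 units and none starting at 0) in JNKΔhepa hepatocytes, WT hepatocytes, JNKΔhepa liver and WT liver. Points are single arrays, bars the mean and SD of 3. Ppargc1a in JNKΔhepa hepatocytes, at 6.23 to 6.47, lies below its other groups.

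The first question was whether loss of JNK changed these genes. Of the 10, 1 passed the test in hepatocytes, where Ppargc1a fell 2.01-fold below WT, and 0 passed in whole liver. To pass, a gene needed an adjusted p below 0.05 (limma, Benjamini-Hochberg over all 18820 genes). Of all genes, 0.840% passed in hepatocytes, with 0.473% lower and 0.367% higher in JNKΔhepa, and 0.925% passed in liver, with 0.367% lower and 0.558% higher. At an unadjusted p under 0.05, 2 of the 10 genes were counted in hepatocytes and 2 in liver, against 12.6% and 12.5% of all genes in that order. The median log2 change of the 10 genes was 0.096 in hepatocytes, where that of all genes was −0.002, and 0.01 in liver, where that of all genes was 0.016.

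Ppargc1a encodes PGC-1α, the coactivator that drives gluconeogenic and mitochondrial genes. In JNKΔhepa hepatocytes it read 6.45, 6.23 and 6.47, against 7.46, 7.15 and 7.57 in WT hepatocytes. The genotypes did not overlap, and all JNKΔhepa values were the lower ones. Ppargc1a thus averaged 6.39 ± 0.133 in JNKΔhepa and 7.39 ± 0.214 in WT hepatocytes (SD, n = 3 each), a log2 change of −1.01 (2.01-fold lower, SE 0.157, 95% interval −1.35 to −0.67, limma adjusted p = 0.00919). The second Ppargc1a probe set gave 5.03, 5.27 and 5.27 in JNKΔhepa hepatocytes, against 6.03, 5.95 and 6.60 in WT hepatocytes. It too fell, with a log2 change of −1.0 (SE 0.201, limma adjusted p = 0.0345 over 21218 probe sets). The call for Ppargc1a was lost without WT hepatocyte replicate 3 (log2 change −0.92, limma adjusted p = 0.0518) and without JNKΔhepa hepatocyte replicate 2 (−0.93, adjusted p = 0.0564).

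In whole liver Ppargc1a read 7.41, 7.67 and 7.66 in JNKΔhepa, against 7.35, 7.41 and 7.94 in WT. These groups overlapped, and the log2 change was 0.01 (95% interval −0.33 to 0.35, limma adjusted p = 0.99), so a fall of the size seen in hepatocytes lies outside the interval. The second probe set had a log2 change of −0.20 in liver (SE 0.201, adjusted p = 0.785). The difference between the effects, hepatocytes minus liver, was −1.02 (SE 0.222, 95% interval −1.50 to −0.54) and did not pass over all genes (limma adjusted p = 0.358, range 0.0545 to 0.615 over the other settings). Only 2 genes of the whole table (0.0106%) passed that interaction test, and 0 of the 10 did. At an unadjusted p under 0.05, 3 of the 10 were counted (Ppargc1a, G6pc and Irs2), against 7.22% of all genes. The fall in Ppargc1a is thus not shown to be specific to hepatocytes.

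Most markers of Kupffer cells, sinusoidal endothelium and stellate cells were also lower on average in the hepatocyte samples where Ppargc1a fell. All 8 Kupffer cell and macrophage markers were lower on average in JNKΔhepa than in WT hepatocytes, with a median log2 change of −0.758, and their summed linear signal was 295 to 448 in JNKΔhepa against 435 to 751 in WT. All 8 sinusoidal endothelial markers were lower too (median −0.575, sum 878 to 1260 in JNKΔhepa against 1200 to 1590 in WT). Of 8 stellate cell and fibroblast markers 7 were lower (median −0.289, sum 356 to 496 in JNKΔhepa against 528 to 696 in WT), and only Ecm1 among these 3 lists passed (log2 change −0.71, limma adjusted p = 0.01). Marco read below the array median on every JNKΔhepa hepatocyte array, and Des did so on every hepatocyte array of both genotypes. Other lists were not lower in hepatocytes, with median log2 changes of 0.059 for cholangiocytes, 0.001 for lymphocytes and 0.038 for neutrophils and monocytes. Most markers of those lists read below the array median there. The 1 measured erythroid marker had a log2 change of 0.38. Of 9 hepatocyte markers 8 were higher on average in JNKΔhepa hepatocytes, with a sum of 39969 to 42993 against 38083 to 41713 in WT. In JNKΔhepa livers the sums for Kupffer cells, endothelium and stellate cells were 1998 to 2275, 3844 to 4185 and 2592 to 2864. In WT livers they were 1946 to 2821, 3497 to 3980 and 3035 to 3216, and the log2 change of Ppargc1a in liver was 0.01. The part of these cells in the hepatocyte result was not tested. In bulk samples, fewer cells of a type and less RNA per cell cannot be told apart.

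The 3 genes whose values ran most alike to Ppargc1a over the 12 arrays, after the mean of each tissue was subtracted, were Tmem65 (Pearson r = 0.945), Ecm1 (r = 0.925) and Khdc3 (r = 0.9). Tmem65, which encodes a mitochondrial membrane protein, had log2 changes of −0.44 in hepatocytes (SE 0.108, limma adjusted p = 0.0894) and 0.04 in liver. Ecm1, which encodes a matrix protein, had −0.71 in hepatocytes and −0.08 in liver. Khdc3 read below the array median on some arrays, and its log2 change in hepatocytes was −0.29 (adjusted p = 0.169). All these r values include the genotype difference in hepatocytes, and they are a description.

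Foxo1 encodes the forkhead factor that insulin excludes from the nucleus. It read 7.45, 7.77 and 7.99 in JNKΔhepa hepatocytes, against 7.55, 7.83 and 7.59 in WT hepatocytes, a log2 change of 0.09 (95% interval −0.22 to 0.39, limma adjusted p = 0.88). In liver it read 8.00, 8.11 and 8.03 in JNKΔhepa, against 8.25, 7.83 and 8.20 in WT (log2 change −0.05, 95% interval −0.36 to 0.26, adjusted p = 0.944). The genotypes overlapped in both tissues.

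Promoter windows of 300 bases, 250 before and 50 after the transcription start, were available from RefSeq (GRCm38.p6) for 9 of the 10 genes. Those of Ppargc1a, the gene that fell, and of G6pc, Pck1 and Igfbp1, 3 textbook targets of cAMP and insulin, are shown because the pathway acts on them through short elements near the start. Capitals mark matches, on either strand, to the cAMP motif TGACG, the short form of the cAMP response element, or to the insulin motif CAAAACA, the core of the insulin response element. Ppargc1a was added after its values were seen.
Ppargc1a (chr5:51567676-51567975, minus strand): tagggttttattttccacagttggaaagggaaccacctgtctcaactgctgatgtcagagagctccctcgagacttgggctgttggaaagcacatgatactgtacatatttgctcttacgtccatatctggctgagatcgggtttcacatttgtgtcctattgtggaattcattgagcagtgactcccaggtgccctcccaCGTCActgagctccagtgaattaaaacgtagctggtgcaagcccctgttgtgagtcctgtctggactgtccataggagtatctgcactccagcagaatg
G6pc (chr11:101367466-101367765, plus strand): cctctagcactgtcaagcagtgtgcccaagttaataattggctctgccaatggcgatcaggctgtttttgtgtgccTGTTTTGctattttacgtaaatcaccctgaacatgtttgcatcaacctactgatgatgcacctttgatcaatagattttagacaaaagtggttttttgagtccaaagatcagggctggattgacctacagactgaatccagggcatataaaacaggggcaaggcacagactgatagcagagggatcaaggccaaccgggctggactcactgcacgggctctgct
Pck1 (chr2:173152823-173153122, plus strand): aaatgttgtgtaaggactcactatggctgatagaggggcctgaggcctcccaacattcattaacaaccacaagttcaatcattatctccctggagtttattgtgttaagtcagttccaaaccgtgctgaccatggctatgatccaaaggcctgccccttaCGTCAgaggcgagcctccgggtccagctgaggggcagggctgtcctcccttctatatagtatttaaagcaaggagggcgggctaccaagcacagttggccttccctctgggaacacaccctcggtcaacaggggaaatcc
Igfbp1 (chr11:7197537-7197836, plus strand): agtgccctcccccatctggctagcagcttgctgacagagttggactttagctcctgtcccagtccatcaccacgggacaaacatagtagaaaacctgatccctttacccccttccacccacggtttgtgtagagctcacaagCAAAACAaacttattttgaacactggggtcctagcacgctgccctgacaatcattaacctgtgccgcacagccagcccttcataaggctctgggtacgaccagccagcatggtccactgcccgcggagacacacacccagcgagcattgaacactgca

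Counted from the start, the cAMP motif lay on the reverse strand at −49 to −45 in Ppargc1a and at −90 to −86 in Pck1. The insulin motif lay on the reverse strand at −174 to −168 in G6pc and on the forward strand at −108 to −102 in Igfbp1. Irs1 held both motifs and Irs2 held the insulin motif. The cAMP motif was found in 3 of the 10 promoter windows (Pcx has 2) and in 20.8% of the 32851 windows of the table. The insulin motif was found in 4 of the 10 and in 6.28% of all windows. A consensus of FOXO factors, GTAAACA, was found in 0 of the 10 and in 3.65% of all windows. The AP-1 element, through which the JNK substrate JUN acts and searched as TGANTCA, was found in 0 of the 10 and in 7.81% of all windows. Only exact letters were searched, on both strands, and a match is not a tested site. No matches overlapped one another in these windows.

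**Figure D2:**
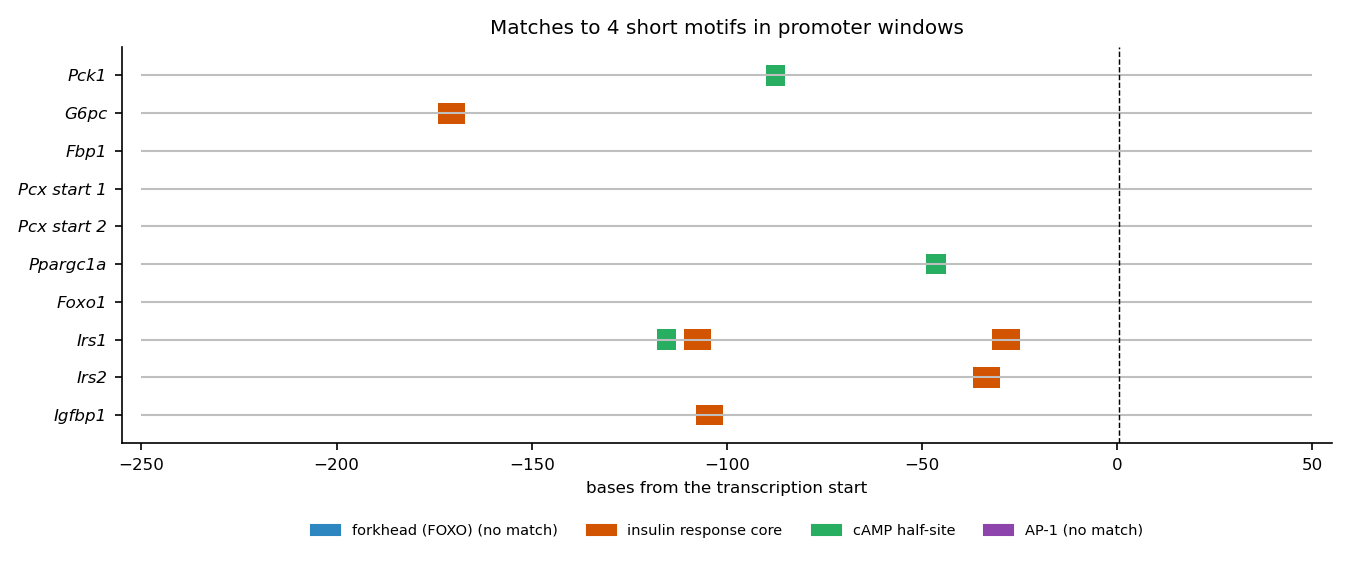
Positions of motif matches (coloured boxes) along the promoter windows of 9 genes, in bases from the transcription start (dashed line). The cAMP motif (half-site in the legend) lies at −49 to −45 in Ppargc1a, and the insulin response core at −108 to −102 in Igfbp1.

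Among the enzymes, G6pc, the last step of glucose release, gave the clearest difference in liver. It read 11.87, 12.13 and 12.28 in JNKΔhepa livers, against 11.27, 11.68 and 11.44 in WT livers. Every JNKΔhepa array lay above every WT array, and the log2 change was 0.63 (1.55-fold, SE 0.137, 95% interval 0.34 to 0.93), just short of the threshold (limma adjusted p = 0.0525). It passed with dim genes left out (adjusted p = 0.0415), with all arrays quantile-normalised together (0.0419), with array weights (0.036), with a trended robust prior (0.03) and without WT liver replicate 2 (0.048). Over all these and the other settings its adjusted p ran from 0.03 to 0.202, the highest without WT liver replicate 1.

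In hepatocytes G6pc read 12.40, 12.06 and 11.98 in JNKΔhepa, against 12.04, 11.98 and 12.09 in WT. Here the genotypes overlapped (log2 change 0.11, 95% interval −0.19 to 0.40, limma adjusted p = 0.832). The effect in hepatocytes minus that in liver was −0.53 (SE 0.194, adjusted p = 0.596), so a difference between the tissues is not shown.

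Pcx encodes the mitochondrial enzyme that turns pyruvate into oxaloacetate. It read 10.64, 10.57 and 10.50 in JNKΔhepa livers, against 10.15, 10.18 and 10.45 in WT livers. The JNKΔhepa values were all higher, by 0.31 on average (SE 0.0945, 95% interval 0.10 to 0.51), without passing (limma adjusted p = 0.176). In hepatocytes Pcx read 10.06, 9.89 and 10.07 in JNKΔhepa, against 9.86, 9.88 and 9.86 in WT, again without overlap and without passing (log2 change 0.14, 95% interval −0.06 to 0.34, adjusted p = 0.612).

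Pck1, which commits oxaloacetate to glucose synthesis, was close to level across genotypes. It read 11.77, 11.93 and 12.01 in JNKΔhepa livers and 11.87, 11.73 and 12.10 in WT livers. In hepatocytes it read 11.85, 11.84 and 11.90 in JNKΔhepa and 11.77, 11.84 and 11.95 in WT. The log2 changes were 0.01 in liver (95% interval −0.22 to 0.23, limma adjusted p = 0.992) and 0.01 in hepatocytes (95% interval −0.21 to 0.23, adjusted p = 0.987). Changes of Pck1 beyond 1.17-fold in liver and 1.18-fold in hepatocytes lie outside these intervals.

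Fbp1, the fructose-1,6-bisphosphatase, had the narrowest intervals of the 10. It read 12.07, 12.16 and 12.03 in JNKΔhepa livers and 12.10, 12.12 and 12.18 in WT livers (log2 change −0.05, 95% interval −0.21 to 0.12). In hepatocytes it read 11.72, 11.87 and 11.72 in JNKΔhepa and 11.78, 11.73 and 11.72 in WT (log2 change 0.03, 95% interval −0.14 to 0.19). Neither passed (limma adjusted p = 0.884 and 0.935), and the arrays overlapped. In the hepatocytes where Ppargc1a fell, the 4 enzymes thus had log2 changes of 0.01 to 0.14.

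**Figure D3:**
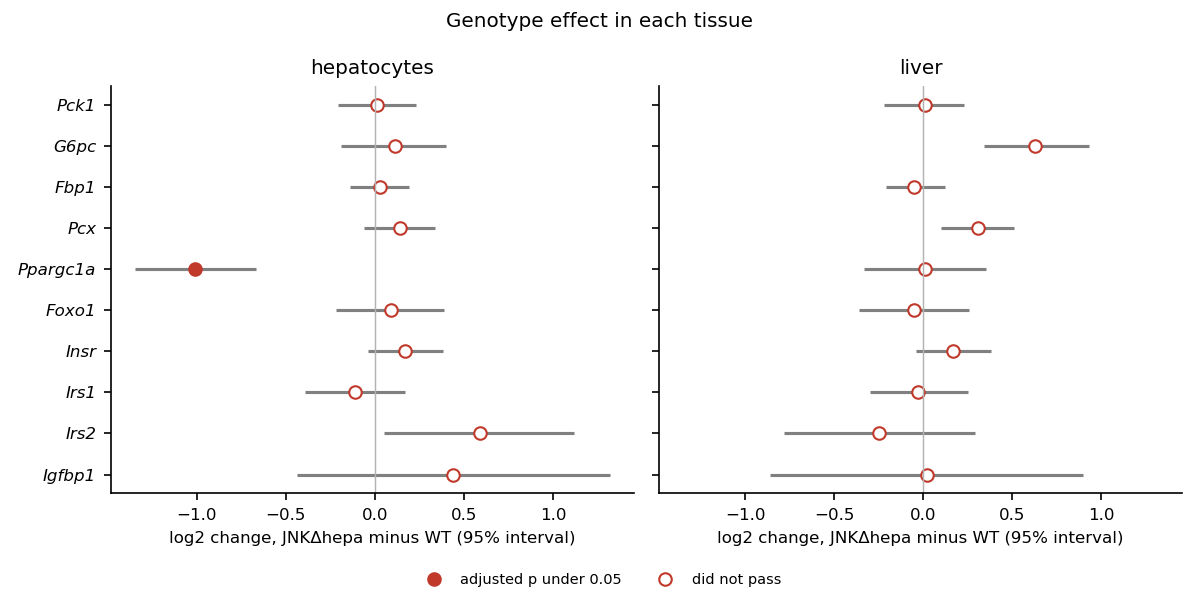
Log2 change, JNKΔhepa minus WT, with its 95% interval (horizontal axis) for the 10 genes in hepatocytes and in liver. Filled points passed at an adjusted p under 0.05. Only Ppargc1a in hepatocytes, at −1.01, is filled, and G6pc in liver stands at 0.63.

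Insr, the insulin receptor gene, had a mean 0.17 higher in JNKΔhepa in each tissue by its brighter probe set, without passing. Liver values were 9.33, 9.43 and 9.39 in JNKΔhepa, against 9.25, 9.20 and 9.19 in WT. The arrays did not overlap there, but the log2 change of 0.17 did not pass (95% interval −0.04 to 0.38, limma adjusted p = 0.533). In hepatocytes Insr read 8.87, 8.86 and 8.86 in JNKΔhepa, against 8.66, 8.49 and 8.91 in WT (log2 change 0.17, 95% interval −0.04 to 0.38, adjusted p = 0.518). A second Insr probe set read 8.23, 8.17 and 8.34 in JNKΔhepa hepatocytes, against 7.83, 7.94 and 8.06 in WT hepatocytes, and did not pass either (log2 change 0.30, SE 0.0833, adjusted p = 0.136 over 21218 probe sets). Its log2 change in liver was 0.08 (adjusted p = 0.8, SE 0.0833). By this second probe set the genotypes did not overlap in either tissue.

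Irs1, the adaptor whose serine phosphorylation by JNK is the textbook link to insulin resistance, read 7.20, 7.04 and 7.25 in JNKΔhepa livers, against 7.33, 7.34 and 6.90 in WT livers. In hepatocytes it read 6.39, 6.23 and 6.41 in JNKΔhepa, against 6.27, 6.61 and 6.48 in WT. The genotypes overlapped in both tissues, with log2 changes of −0.03 (95% interval −0.30 to 0.25, limma adjusted p = 0.971) in liver and −0.11 (95% interval −0.39 to 0.17, adjusted p = 0.806) in hepatocytes. The arrays measure its mRNA and say nothing of its phosphorylation.

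Irs2, the adaptor that FOXO1 induces in fasted liver, differed between genotypes in hepatocytes by more than its spread there. It read 7.34, 7.12 and 7.28 in JNKΔhepa hepatocytes, against 6.67, 6.58 and 6.75 in WT hepatocytes. No arrays overlapped, and the log2 change was 0.59 (1.5-fold, SE 0.248, 95% interval 0.05 to 1.12), but it did not pass over all genes (limma adjusted p = 0.351). In liver Irs2 read 5.31, 6.02 and 6.43 in JNKΔhepa, against 5.70, 6.20 and 6.60 in WT (log2 change −0.25, 95% interval −0.78 to 0.29, adjusted p = 0.775). The liver spread of Irs2, with an SD of 0.568 in JNKΔhepa and 0.45 in WT, was larger than that in hepatocytes, with 0.113 in JNKΔhepa and 0.0883 in WT. The difference between its effects, 0.83 (SE 0.351), did not pass (adjusted p = 0.658).

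Igfbp1 had the largest error of the 10 genes (SE 0.405 for each genotype effect). In liver it read 7.85, 7.89 and 9.77 in JNKΔhepa, against 7.93, 8.61 and 8.92 in WT, so 1 JNKΔhepa liver stood far above the other 2. The log2 change was 0.02, with a 95% interval of −0.86 to 0.90 (limma adjusted p = 0.994). In hepatocytes it read 11.24, 10.82 and 10.95 in JNKΔhepa, against 10.62, 10.43 and 10.64 in WT. All JNKΔhepa hepatocyte values were higher, yet the difference of 0.44 (95% interval −0.44 to 1.32) did not pass (adjusted p = 0.736).

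By the brightest probe set of each gene, 4 of the 10 genes had no overlap between genotypes in hepatocytes, Ppargc1a being lower and Pcx, Irs2 and Igfbp1 higher in JNKΔhepa, against 14.7% of all genes. In liver this held for 3 of the 10 (G6pc, Pcx and Insr, all higher in JNKΔhepa), against 20.4% of all genes. Only Ppargc1a in hepatocytes passed the test among them. The lower Kupffer cell, endothelial and stellate cell marker sums of the JNKΔhepa hepatocytes go with all hepatocyte comparisons here, and their part was not tested.

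The second question was how the genes differ between isolated hepatocytes and the liver of the same mouse. Igfbp1 was far higher in hepatocytes. Its differences, hepatocytes minus liver, were 3.39, 2.92 and 1.18 in JNKΔhepa mice (mean 2.50 ± 1.17, SD, n = 3) and 2.69, 1.83 and 1.71 in WT mice (mean 2.08 ± 0.536). All 6 mice exceeded a 2-fold difference. By mean difference Igfbp1 ranked 5 among all 18820 genes in JNKΔhepa mice and 7 in WT mice. Only 15 genes (0.0797%) in JNKΔhepa and 10 genes (0.0531%) in WT were higher by at least 2-fold in all 3 mice, and Igfbp1 was the one among the 10 genes in either genotype. Lower by that much in all 3 mice were 10.6% of all genes in JNKΔhepa and 9.06% in WT, which brings the genes counted either way to 10.6% and 9.12% in that order, and none of the 10 genes was among the lower ones. The non-parenchymal marker sums differed between the tissues too, as those of Kupffer cells and macrophages ran from 295 to 448 in JNKΔhepa hepatocytes against 1998 to 2275 in JNKΔhepa livers, and from 435 to 751 in WT hepatocytes against 1946 to 2821 in WT livers. Their part in the tissue differences was not tested.

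These differences depend on how the arrays are scaled, since the median difference of all genes was −0.585 as deposited, 0.016 with all arrays quantile-normalised together and 0.27 with each array centred on its median. Igfbp1 was higher in hepatocytes under each of them, with mean differences of 2.96 and 3.37 in JNKΔhepa and 2.56 and 2.91 in WT under these 2 rescalings. Irs2 was higher in hepatocytes too, by 2.04, 1.11 and 0.85 in JNKΔhepa mice (mean 1.33) and by 0.97, 0.38 and 0.16 in WT mice (mean 0.50), and it stayed above 0 under both rescalings (2.04 and 2.21 in JNKΔhepa, 1.19 and 1.34 in WT). It ranked 19 among all genes in JNKΔhepa and 62 in WT.

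By its brighter probe set, Ppargc1a was lower in hepatocytes than in liver in all 3 JNKΔhepa mice, by differences of −0.96, −1.44 and −1.19, against 0.11, −0.26 and −0.38 in the WT mice. In JNKΔhepa its mean stayed below 0 under both rescalings (−0.52 and −0.32), and in WT it did not (0.45 and 0.66). G6pc differed by 0.53, −0.08 and −0.30 in JNKΔhepa mice, against 0.77, 0.30 and 0.66 in WT mice, where all 3 hepatocyte samples were higher. Under both rescalings the mean of G6pc lay above 0 (0.21 and 0.92 in JNKΔhepa, 0.82 and 1.41 in WT). The mean difference of Pck1 was −0.04 in JNKΔhepa and −0.04 in WT as deposited. It turned above 0 under both rescalings (0.13 and 0.83 in JNKΔhepa, 0.15 and 0.79 in WT). Fbp1 (−0.32 in JNKΔhepa and −0.39 in WT), Pcx (−0.56 and −0.40 in that order), Foxo1 (−0.31 and −0.44), Insr (−0.52 and −0.52) and Irs1 (−0.82 and −0.74) were lower in hepatocytes as deposited. With each array centred on its median all 5 turned above 0, from 0.05 for Irs1 to 0.57 for Foxo1 in JNKΔhepa and from 0.10 for Irs1 to 0.44 for Fbp1 and Pcx in WT, so no direction is given for them.

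**Figure D4:**
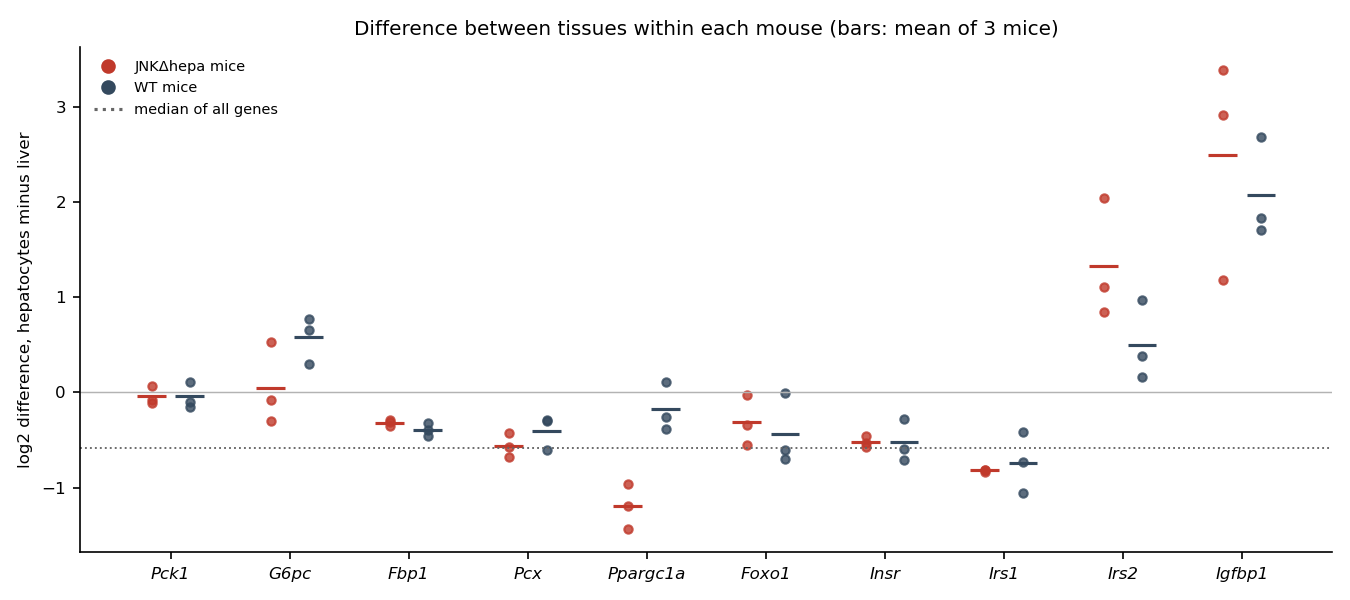
Log2 difference, hepatocytes minus liver, within each mouse (points; bars are means of 3) for the 10 genes in JNKΔhepa and WT mice. The dotted line is the median of all genes, −0.585. Igfbp1 lies at 1.18 or higher in all 6 mice. Ppargc1a lies at −1.44 to −0.96 in JNKΔhepa mice and −0.38 to 0.11 in WT mice, but its interaction did not pass (limma adjusted p = 0.358).

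By level as deposited, the brighter probe set of Ppargc1a averaged 6.39 ± 0.133 in JNKΔhepa hepatocytes, 7.39 ± 0.214 in WT hepatocytes, 7.58 ± 0.146 in JNKΔhepa liver and 7.57 ± 0.328 in WT liver, so its 3 upper groups lay within their spread. The second Ppargc1a probe set was lower in WT hepatocytes (6.03, 5.95 and 6.60) than in the livers of the same WT mice (6.68, 6.61 and 7.20). G6pc averaged 12.14 ± 0.224 in JNKΔhepa hepatocytes, 12.04 ± 0.0567 in WT hepatocytes, 12.09 ± 0.206 in JNKΔhepa liver and 11.46 ± 0.207 in WT liver, which was the lowest of the 4 beyond their spread. Igfbp1 averaged 11 ± 0.214 in JNKΔhepa hepatocytes, 10.56 ± 0.113 in WT hepatocytes, 8.51 ± 1.1 in JNKΔhepa liver and 8.49 ± 0.509 in WT liver, with both hepatocyte groups above both liver groups. These are SDs of 3 arrays.

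The wider pathway was described with 9 lists holding 215 entries, of which 197 were measured. The 10 genes themselves were left out of these lists. A list name need not hold for every gene in it, as for Insig2 (insulin-induced), Ppp1r3b (fasting-induced) and Sh2b1 (negative regulators). Of all genes, 0.840% passed in hepatocytes and 0.925% in liver. Of 26 measured gluconeogenic enzymes and genes of substrate entry, 0 passed in hepatocytes and 1 rose in liver. It was Slc16a1, the lactate and pyruvate carrier MCT1, which read 9.34, 8.75 and 9.52 in JNKΔhepa livers, against 8.42, 8.46 and 8.08 in WT livers (log2 change 0.88, 1.84-fold, SE 0.169, limma adjusted p = 0.0291). That call was lost without WT liver replicate 1 (0.0802), 2 (0.0559) or 3 (0.0765) and without JNKΔhepa liver replicate 1 (0.122) or 3 (0.112). In hepatocytes Slc16a1 had a log2 change of 0.56 (adjusted p = 0.169), with all JNKΔhepa arrays above all WT arrays. The list's median log2 change was 0.005 in hepatocytes and 0.062 in liver. Gpd1, the cytosolic glycerol-3-phosphate dehydrogenase, had the smallest p of the list in hepatocytes, at a log2 change of −0.33 (SE 0.0806, adjusted p = 0.082).

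Of 43 genes of the transcriptional and hormonal control of gluconeogenesis, 0 passed in either tissue (medians 0.016 in hepatocytes and 0.019 in liver). Sik1, a kinase that inhibits CREB coactivators, had the smallest p in hepatocytes (log2 change 0.94, limma adjusted p = 0.111) and Nr0b2, the repressor SHP, in liver (−0.46, adjusted p = 0.332). Of 34 genes of the insulin receptor pathway 0 passed (medians −0.01 in hepatocytes and 0.072 in liver). The smallest p belonged to Tsc1, an inhibitor of the mTOR pathway, in hepatocytes (−0.31, adjusted p = 0.169) and to Pik3r1, a regulatory subunit of phosphoinositide kinase, in liver (−0.39, adjusted p = 0.225).

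Of 30 negative regulators of insulin signalling, 1 rose in hepatocytes and 0 passed in liver. The list's median log2 change was 0.012 in hepatocytes and 0.041 in liver. Socs2, whose protein dampens cytokine and growth hormone signalling, read 9.53, 8.95 and 8.97 in JNKΔhepa hepatocytes, against 7.14, 6.91 and 6.77 in WT hepatocytes (log2 change 2.21, SE 0.4, limma adjusted p = 0.022). In livers it read 7.91, 7.47 and 9.51 in JNKΔhepa, against 8.44, 9.25 and 8.53 in WT, with overlap. The Socs2 call was lost without WT hepatocyte replicate 1 (0.0707) or 3 (0.0902) and without JNKΔhepa hepatocyte replicate 2 (0.0683) or 3 (0.0687). It was also lost with array weights (0.053) and with a trended robust prior (0.0848). In liver the smallest p was that of Ide, the insulin-degrading enzyme (0.46, adjusted p = 0.214).

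Genes that move with feeding were listed both ways. Of 14 genes listed as insulin-induced in liver 0 passed, and their median log2 change was −0.063 in hepatocytes and −0.163 in liver. Thrsp, a regulator of lipid synthesis, read 8.35, 9.24 and 7.71 in JNKΔhepa livers, against 9.83, 9.78 and 10.68 in WT livers (log2 change −1.67, SE 0.392, limma adjusted p = 0.073). Me1, malic enzyme, had the smallest p in hepatocytes (0.32, adjusted p = 0.287). Of 15 genes listed as fasting-induced 1 rose in hepatocytes and 2 in liver, against 0.367% and 0.558% of all genes in that order. Log2 changes above 0 were seen for 8 in hepatocytes (median 0.044) and for 12 in liver (median 0.545). Of all 18820 genes, 9304 lay above 0 in hepatocytes and 10229 in liver. The lowest log2 change of the fasting-induced list was that of Asns in each tissue, −1.13 in hepatocytes and −1.49 in liver, without passing.

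The fasting-induced genes that passed were the hormone gene Fgf21 in hepatocytes (log2 change 0.85, limma adjusted p = 0.0233) and in liver (0.77, adjusted p = 0.0373), and Plin2, a lipid droplet coat protein, in liver (0.57, adjusted p = 0.0129). Fgf21 read below the array median in all 3 WT livers. The Plin2 call was lost without WT liver replicate 1 (0.0717) or JNKΔhepa liver replicate 1 (0.0681) or 3 (0.0667). The liver call for Fgf21 was lost without WT replicate 1 (0.149) or 2 (0.118) or JNKΔhepa replicate 2 (0.0774) or 3 (0.102), and with all arrays quantile-normalised together (0.0642). Its hepatocyte call was lost without WT replicate 1 (0.06) or 3 (0.0866) or JNKΔhepa replicate 2 (0.112) or 3 (0.068). Plin2 had a log2 change of 0.04 in hepatocytes, and the difference between its effects, −0.53, did not pass (adjusted p = 0.398).

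In the remaining 3 lists 0 genes passed. Among 10 IGF-binding proteins and IGFs, relatives and ligands of Igfbp1, medians were −0.021 in hepatocytes and 0 in liver. Igfbp3, the main carrier of IGFs in plasma, had the smallest p in hepatocytes (log2 change −0.69, limma adjusted p = 0.116) and Igf1, the growth factor made by hepatocytes, in liver (−0.30, adjusted p = 0.133). Igfbp3 read 3.73, 3.29 and 3.61 in JNKΔhepa hepatocytes, close to the array median of 3.22 to 3.28. Its means were 4.23 in WT hepatocytes, 7.19 in JNKΔhepa liver and 7.18 in WT liver. Among 11 glucocorticoid-induced genes (medians 0.319 in hepatocytes and 0.099 in liver) the genes with the smallest p were the phosphatase gene Dusp1 in hepatocytes (−1.0, adjusted p = 0.0898) and the transcription factor gene Zbtb16 in liver (−0.91, adjusted p = 0.394). Among 14 glycolysis genes (medians −0.035 in hepatocytes and 0.026 in liver) these were Pfkm, the muscle-type phosphofructokinase, in hepatocytes (−0.25, adjusted p = 0.331) and Pfkl, the liver-type one, in liver (0.35, adjusted p = 0.225). In the interaction 0 of the listed genes passed, and the smallest p belonged to Socs2 (2.66, adjusted p = 0.35).

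**Figure D5:**
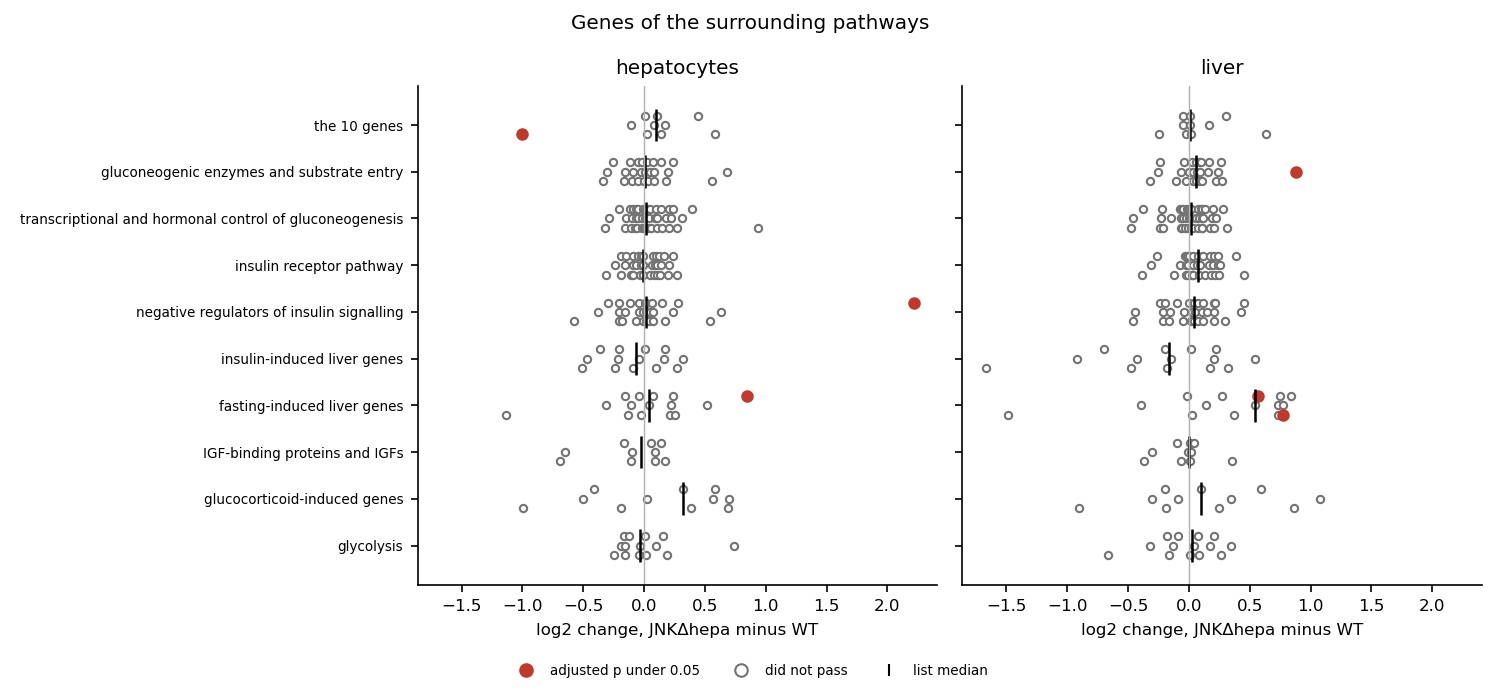
Log2 change, JNKΔhepa minus WT (horizontal axis), of every measured gene of the 10-gene set and of 9 pathway lists in hepatocytes and liver. Filled points passed at an adjusted p under 0.05, and vertical bars are list medians. Ppargc1a at −1.01 and Socs2 at 2.21 in hepatocytes stand apart.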

How the data were processed

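RNA from 12 samples was hybridised to 1-colour whole-transcript arrays, 1 per sample. The authors' deposited values are log2 signals per probe set made with RMA (background correction, quantile normalisation, probe-set summary), per the submitters' processing notes. The log2 scale was read from the values. The sources used here give no version, probe-set definition or genome build. Precision is limited by 3 arrays a group.

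Of 35556 probe sets, 21218 had 1 gene symbol, 1881 several and 12457 none here. The 18820 genes were fitted as group means over all 12 arrays with limma 3.58.1 (R 4.3.3; 8 residual and 4.76 prior degrees of freedom), without a filter, with two-sided tests adjusted by Benjamini-Hochberg over all genes. The fit was tested on simulated data. Contrasts were JNKΔhepa minus WT in each tissue and their difference. Tissue differences were taken within each mouse, paired by the label's animal, without a test. Correlations of deviations between the tissues of a mouse were −0.013 to 0.098. Between tissues of different mice of the same genotype they were −0.147 to 0.121, a range that holds the same-mouse values, so the pairing rests on the labels. Mouse as a replicate block changed no call of the 10 genes. Markers were summed on the linear scale.

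The genes, lists and tests were chosen with earlier results of these data known. Listed genes were named if they passed (up to 4 a list and comparison) or else had the smallest p.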

Additional observations from a re-analysis of the deposited data

How the results depend on the processing

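In liver 0 of the 10 genes passed as reported, and 1, G6pc, passed with dim genes left out, quantile normalisation over all 12 arrays, array weights or a trended robust prior. Leaving out single arrays gave 0 to 1 in liver, 0 to 1 in hepatocytes (1 as reported) and 0 in the interaction. Over all genes the count in liver was 408 with array weights and 80 to 208 without single arrays (174 as reported), in hepatocytes 77 with the arrays of the tissue alone and 61 to 387 without single arrays (158), and in the interaction 4 with array weights and 1 to 7 without single arrays (2). The hepatocyte count moved by over 1.5 times without any 1 of the 6 hepatocyte arrays, the liver count without any 1 of the 6 liver arrays except WT replicate 3, and the interaction count without any 1 array except WT liver replicate 1, WT hepatocyte replicates 1 and 3 and JNKΔhepa hepatocyte replicate 1. The number of the 10 genes that differed at least 2-fold between tissues in all mice (1 in each genotype) was 2 in JNKΔhepa with joint quantiles, with arrays centred on their median (Irs2 added in both) or with averaged probe sets (Ppargc1a added), 2 in WT with centred arrays (G6pc added), and 1 to 2 in JNKΔhepa without single mice (Ppargc1a added without mouse 1, Irs2 without mouse 3).

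Signs of the 10 genes' genotype effects and their interaction turned only where neither value passed. With joint quantiles the turned values were −0.01 for Pck1, −0.02 for Ppargc1a and 0 for Igfbp1 in liver, −0.03 for Pck1 and −0.01 for Fbp1 in hepatocytes, and −0.02 for Pck1 and −0.01 for Insr in the interaction. In liver, centred arrays gave −0.01 for Pck1 and 0 for Ppargc1a, averaged probe sets −0.09 for Ppargc1a, and array weights −0.08 for Igfbp1. Without single arrays the liver changes ran from −0.08 to 0.11 for Pck1, −0.10 to 0.20 for Ppargc1a, −0.18 to 0.03 for Foxo1, −0.17 to 0.05 for Irs1, −0.50 to 0.06 for Irs2 and −0.61 to 0.35 for Igfbp1. The hepatocyte changes ran from −0.03 to 0.06 for Pck1, −0.02 to 0.19 for G6pc, −0.02 to 0.05 for Fbp1 and −0.04 to 0.23 for Foxo1. The interaction ran from −0.10 to 0.09 for Pck1, −0.09 to 0.12 for Insr and −0.18 to 0.06 for Irs1. The cause of these shifts was not tested.

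With the replicate number as a replicate block, where same-numbered mice of different genotype share only a number, 131 genes passed in liver and 187 in hepatocytes, and Ppargc1a passed in hepatocytes (limma adjusted p = 0.00526). Slc16a1 (adjusted p = 0.0546) and Fgf21 (0.0527) no longer passed in liver, nor did they (0.115 and 0.106) or Plin2 (0.0538) with the arrays of the tissue alone. With the mouse as a fixed replicate block the interaction had 2 genes and Ppargc1a an adjusted p of 0.203.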

Other observations

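Irs2 and Igfbp1, both repressed by insulin in liver, ranked the 3 mice alike in each of the 4 groups. Among JNKΔhepa livers the mouse with the highest Irs2 value (6.43) also had the highest Igfbp1 value (9.77), and the mouse with the lowest Irs2 (5.31) had the lowest Igfbp1 (7.85). Among WT livers the mouse with the highest Irs2 (6.60) had the highest Igfbp1 (8.92), and that with the lowest Irs2 (5.70) the lowest Igfbp1 (7.93). In hepatocytes the genes again ranked the mice alike, in an order other than that of the livers. Among JNKΔhepa hepatocytes the mouse that was lowest in liver read highest for both genes (7.34 for Irs2 and 11.24 for Igfbp1), and among WT hepatocytes the mouse that was highest in liver stayed highest (6.75 for Irs2 and 10.64 for Igfbp1). In WT hepatocytes the upper values of Igfbp1 were close, at 10.62 and 10.64. In JNKΔhepa livers Pck1 (11.77, 11.93 and 12.01) and G6pc (11.87, 12.13 and 12.28) ranked the mice in the same order. In WT livers and in the hepatocytes of both genotypes the orders of Pck1 and G6pc differed. How often other pairs of genes rank the mice alike was not counted. These orders were noticed in the values, for a pair picked from the 10 genes, and were not tested.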
